A study of Mus musculus with 14 samples.

Results

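The genes described here are 10 regulators of cartilage and of chondrocyte hypertrophy, namely *Sox9*, *Sox5*, *Sox6*, *Snorc*, *Ihh*, *Pthlh*, *Pth1r*, *Runx2*, *Runx3* and *Mef2c*. They were chosen by name from the 55487 genes of the gene count table, and all 10 were among the 16915 genes that passed the expression minimum. The levels are given as CPM, the counts of a gene scaled to the normalised counts of its library, and the minimum was a CPM above 1 in 3 or more libraries. RNA was sequenced from caudal intervertebral discs (IVDs) of 14 male mice, 1 library per mouse with 5 discs pooled, so nucleus pulposus, annulus, end plate and any attached tissue were read together. The db/db group (n = 3) was homozygous for the *db* mutation of the leptin receptor gene, and its controls were db/+ littermates (n = 3), which carried 1 mutant copy themselves. Mice of both db groups were 3 months old, and the strain of the db mice is not given in the labels. The STZ-HFD group (n = 4) consisted of C57BL/6J mice on high-fat diet (HFD) for 4 to 6 weeks, which then received streptozotocin (STZ), a toxin of the insulin-producing β-cells, once at 100 mg/kg, followed by 12 more weeks of the diet. Its controls were wild-type Con+Veh mice (n = 4), given standard chow and citrate buffer. The paper describes the C57BL/6 mice of this cohort as 12 weeks old, and their age at tissue collection is not given. The question of the comparison was how gene expression in the disc differs from its own control in each of these models of type 2 diabetes.

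As background, *Sox9* is the transcription factor that establishes and maintains chondrocyte identity, and with its partners *Sox5* and *Sox6* it drives genes of the cartilage matrix in growth cartilage, end plate and disc. Chondrocytes that leave this state become hypertrophic, a step promoted by *Runx2*, *Runx3* and *Mef2c*. *Ihh*, a secreted hedgehog ligand of prehypertrophic cells, induces *Pthlh* (parathyroid hormone-related protein), which acts through its receptor *Pth1r* to hold chondrocytes back from hypertrophy.

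The libraries held 16076908 to 58943169 counts, of which 28.06% to 60.25% lay on ribosomal RNA genes, and 3 counts on a gene corresponded to 0.04307 to 0.163 CPM. Quality weights of the fit, which set how much each library counted, ran from 0.2745 in Con+Veh 1 to 3.052 in Con+Veh 3. In Con+Veh replicates 1 to 4 they were 0.2745, 0.4618, 3.052 and 1.807, so its mean in the fit rested mostly on replicates 3 and 4. The summed level of 8 endothelial markers was also uneven there, at 231, 263.9, 907.6 and 934.1 CPM. The normalization factors, which scale each library in the CPM, were 1.056 to 1.611 in the db mice and 0.7641 to 0.818 in Con+Veh. In STZ-HFD 1, the library with the fewest counts and a weight of 0.3791, the factor was 1.582, against 0.6931 to 0.7424 in the other STZ-HFD libraries. All libraries carried the same batch label, and the names of Con+Veh 2 and STZ-HFD 4 shared an ending, RIP, whose meaning is not given. Against the disc label, 8 of 9 nucleus pulposus markers under distinct names were tested, the hedgehog ligand *Shh* being listed at 0 in the db/+ libraries and not tested, and the summed level of the list was 649 to 4431 CPM in db/+, 966.2 to 1284 in db/db, 2003 to 5740 in Con+Veh and 3547 to 7787 in STZ-HFD, with 0 members called in either model. Most of that sum was *Car3*, which muscle and fat also express (means of 1860.0, 900.9, 3031 and 5230.0 CPM in the same order), so it does not rank the groups by nucleus pulposus content. The notochord factor *T* (brachyury) had means of 157.7, 34.4, 167.8 and 116.6 CPM and *Krt19* of 80.3, 13.8, 75.2 and 67.3 CPM. Both overlapped between each model and its control, with 0 of 3 db/db libraries below all db/+ libraries for *T* and 1 of 3 for *Krt19*. Of the 8 markers tested, 6 had a log2 fold change below 0 in db/db (52.7% of all genes) and 3 in STZ-HFD (52.8%). The total count of *Lepr*, which does not show the *db* mutation because that mutation alters splicing, had a log2 fold change of -0.25 in db/db (limma, BH-adjusted p = 0.595) and of -1.11 in STZ-HFD (adjusted p = 0.0107), a call that was lost in 5 of 13 alternatives and without Con+Veh replicate 3, Con+Veh replicate 4 or STZ-HFD replicate 3. RNA of other tissues was present in each group. The summed level of 12 skeletal muscle markers was 5103 to 9780 CPM in db/+, 3287 to 5502 in db/db, 8038 to 12390 in Con+Veh and 7176 to 21880 in STZ-HFD. The summed level of 10 osteoblast and osteocyte markers was 16600 to 18910 CPM in db/+, 9245 to 15220 in db/db, 1221 to 2631 in Con+Veh and 676.7 to 2431 in STZ-HFD. Most of it was *Col1a1* (means of 16560.0, 12360.0, 1839 and 1274 CPM), which fibroblasts and annulus cells express too. The bone-specific *Bglap* had means of 17.2, 8.05, 1.41 and 1.89 CPM, and *Bglap2* of 13.5, 5.89, 1.74 and 0.99 CPM. Of these 10 markers, 9 had a log2 fold change below 0 in db/db (52.7% of all genes) and 8 in STZ-HFD (52.8%). In db/db, 4 of 8 adipocyte markers (*Lpl*, *Fabp4*, *Plin1*, *Adipoq*) and 1 of 8 endothelial markers (*Tek*) were called higher and 1 of 11 muscle markers (*Myh1*) lower, while 0 of 2 lymphocyte and 0 of 5 erythroid markers tested were called in either model.

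*Sox9* fell in STZ-HFD discs, and it was the 1 gene of the 10 that passed the test in either model. A call needed a Benjamini-Hochberg (BH) adjusted p under 0.05 in limma's voomWithQualityWeights and a log2 fold change of 1 or more in size. By this rule 1 of 10 genes was called lower and 0 were called higher in STZ-HFD against Con+Veh, where 1.31% and 1.3% of all genes tested were called, and 2.61% in either direction. At an unadjusted p under 0.05 there were 6 of 10, *Sox9*, *Sox5*, *Snorc*, *Runx2*, *Runx3* and *Mef2c*, against 17.9% of all genes. In db/db against db/+, 0 of 10 were called, where 1.66% of all genes were called in either direction, and 4 of 10, *Ihh*, *Pth1r*, *Sox6* and *Snorc*, had an unadjusted p under 0.05 against 21.1% of all genes. edgeR's quasi-likelihood test and DESeq2 also called 0 of the 10 in db/db. The median log2 fold change of the 10 genes was -0.54 in db/db and -0.68 in STZ-HFD, beside -0.04 and -0.04 over all genes tested, with 9 of 10 below 0 in db/db (52.7% of all genes) and 7 of 10 in STZ-HFD (52.8%). Since a disc library mixes cell types, fewer cells of a type and less RNA per cell cannot be told apart.

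**Figure D1:**
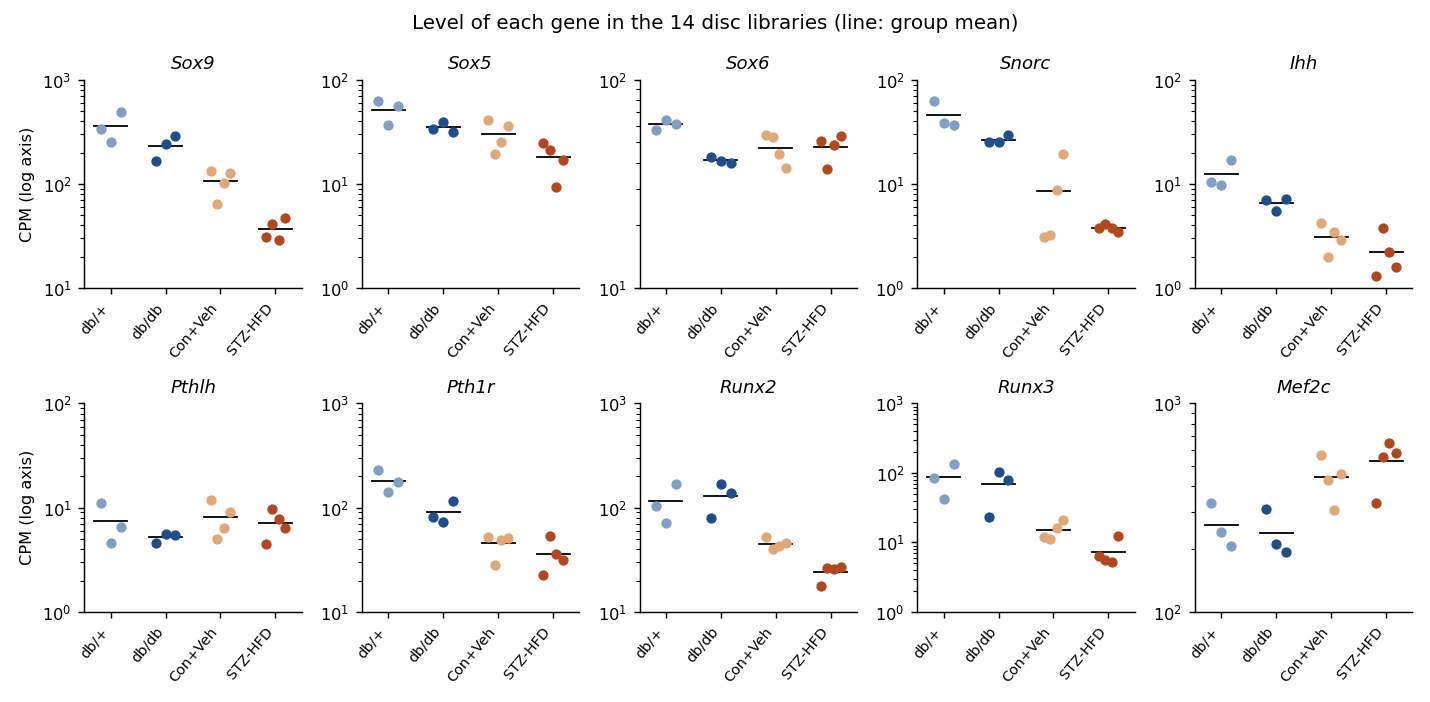
CPM on a log axis for each of the 10 genes, 1 point per library in the 4 groups, with a line at the group mean. The 4 STZ-HFD points of *Sox9* lie between 29.2 and 47.5 CPM, below the Con+Veh points, whose lowest is at 64.2 CPM, while the points of *Pthlh* overlap among all groups.

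*Sox9* (ENSMUSG00000000567) lies on chromosome 11 from 112782224 to 112787760 of GRCm38, on the plus strand, and has 1 transcript in the transcript table. Its level was 31.1, 41.3, 29.2 and 47.5 CPM in STZ-HFD replicates 1 to 4 and 134.5, 64.2, 103 and 126 CPM in Con+Veh replicates 1 to 4. Each STZ-HFD library was below each Con+Veh library. This was a log2 fold change of -1.53 (SE 0.23, 95% CI -2.02 to -1.03), a 2.88-fold lower level (limma, BH-adjusted p = 0.00419). In db/db discs *Sox9* was at 167, 239 and 287 CPM, and in db/+ at 339.7, 252 and 486 CPM. The highest db/db library reached above the lowest db/+ library, so these groups overlapped. Here the estimate on the log2 scale was -0.57 (SE 0.31, 95% CI -1.23 to 0.088; limma, BH-adjusted p = 0.304). This interval includes no difference and also includes a fall of more than 1 on the log2 scale.

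The call of *Sox9* in STZ-HFD depended on the fit, while its direction was lower in every alternative run, with log2 fold changes of -1.79 to -1.34. Its adjusted p was over 0.05 in edgeR's quasi-likelihood test, without a filter on low counts, with a replicate block and with gene totals from transcript counts. It was also over 0.05 without Con+Veh replicate 3 (0.0848), Con+Veh replicate 4 (0.0952) or STZ-HFD replicate 3 (0.0732), which are among the libraries with the highest quality weights of the cohort (3.052, 1.807 and 1.517). Without Con+Veh replicate 2, the library with the lowest *Sox9*, *Sox5* and *Pth1r* of its group, 3 of the 10 genes were called lower, *Sox9* (-1.62), *Sox5* (-1.06) and *Snorc* (-1.65), with adjusted p of 0.00132, 0.0367 and 0.0307 (limma, BH-adjusted). With the same fit but no quality weights the adjusted p was 0.0365, and without both RIP libraries it was 0.00437. Among the tissue markers, 3 of 11 skeletal muscle genes tested (*Acta1*, *Myh2*, *Myh1*) were called higher in STZ-HFD, and 3 of 8 macrophage genes (*Cd68*, *Lyz2*, *Fcer1g*) and 2 of 8 annulus and tendon genes (*Fmod*, *Mkx*) were called lower. *Fmod* is also among the cartilage matrix genes given below, so its call counts in both lists. The part of the other tissues in the *Sox9* result was not tested.

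**Figure D2:**
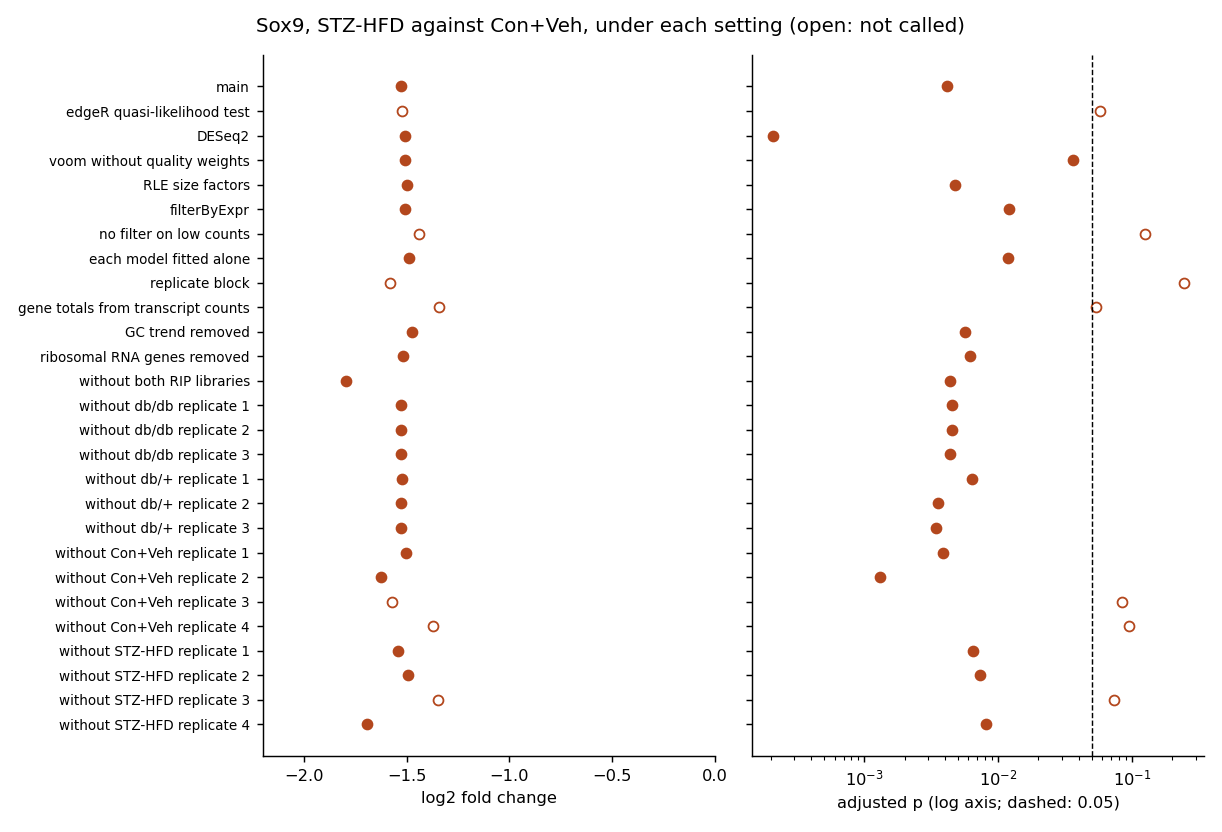
Log2 fold change of *Sox9* in STZ-HFD against Con+Veh (left) and its BH-adjusted p on a log axis (right) under each way of fitting, filled where called and open where not, with the threshold of 0.05 as a dashed line and RIP naming the libraries Con+Veh 2 and STZ-HFD 4. The log2 fold changes lie between -1.79 and -1.34, while the adjusted p lies on both sides of the threshold.

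The partners of *Sox9* did not pass the test in either model. *Sox5* (ENSMUSG00000041540), on chromosome 6 from 143828425 to 144781977 on the minus strand, encodes a protein without a transactivation domain of its own that binds beside SOX9. It was at 24.9, 21.4, 9.35 and 17.2 CPM in STZ-HFD and at 41.0, 19.2, 25.2 and 35.9 CPM in Con+Veh. The groups overlapped through the low Con+Veh replicate 2. For *Sox5* the log2 fold change was -0.94 (SE 0.28; limma, BH-adjusted p = 0.0695). *Sox5* was at 33.6, 39.6 and 31.5 CPM in db/db and at 62.0, 36.6 and 55.4 CPM in db/+, again overlapping, with a log2 fold change of -0.50 (SE 0.30; limma, BH-adjusted p = 0.348).

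*Sox6* (ENSMUSG00000051910), on chromosome 7 from 115470872 to 116038796 on the minus strand, acts with *Sox5*.  Its level was 42.8, 40.6 and 39.8 CPM in db/db and 57.7, 64.2 and 61.6 CPM in db/+. These groups did not overlap, db/db being lower. This held for 4 of the 10 genes (*Sox6*, *Snorc*, *Ihh* and *Pth1r*), against 11.7% of all genes tested, and 0 of 10 were higher without overlap, against 14.1%. The log2 fold change of *Sox6* was -0.58 (SE 0.19, 95% CI -0.98 to -0.18; limma, BH-adjusted p = 0.107). In the other model *Sox6* was at 50.6, 37.4, 48.9 and 53.7 CPM in STZ-HFD and at 54.6, 52.9, 44.04 and 37.5 CPM in Con+Veh. These ranges were nearly the same, and the log2 fold change was 0.17 (SE 0.16, 95% CI -0.17 to 0.52; limma, BH-adjusted p = 0.625).

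*Snorc* (ENSMUSG00000026258), on chromosome 1 from 87470271 to 87475482 on the plus strand, encodes a small transmembrane proteoglycan of cartilage. It was at 25.1, 25.3 and 29.7 CPM in db/db and at 62.5, 38.5 and 36.7 CPM in db/+. The db/db libraries all lay below the db/+ libraries, with a log2 fold change of -0.75 (SE 0.35; limma, BH-adjusted p = 0.236). Con+Veh varied most for this gene, at 3.07, 3.24, 8.74 and 19.3 CPM, a 6.3-fold range within 1 group, while STZ-HFD was at 3.78, 4.13, 3.76 and 3.45 CPM, a 1.2-fold range. The difference between these groups was therefore carried by Con+Veh replicates 3 and 4, since replicates 1 and 2 were below each STZ-HFD library. The log2 fold change of -1.31 (SE 0.45, 95% CI -2.25 to -0.37) did not pass the test (limma, BH-adjusted p = 0.120).

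Some genes of the cartilage matrix and others linked to *Sox9* fell in STZ-HFD discs. Of 20 such genes, 19 were tested (*Matn1* was not), 7 were called lower, 0 higher and 12 not called in STZ-HFD, against 1.31% lower and 1.3% higher over all genes, and the median log2 fold change was -1.29, with 19 of 19 below 0 where 52.8% of all genes tested were below 0. *Col9a1* (type IX collagen), singled out after its values were seen, was the nearest to 0, at -0.090 (SE 0.61; limma, BH-adjusted p = 0.961), with a mean CPM that was higher in STZ-HFD (4.48) than in Con+Veh (3.72). *Epyc*, singled out in the same way, also had a higher mean CPM in STZ-HFD (1.41) than in Con+Veh (0.314). Of its 4 STZ-HFD libraries, 2 were above and 1 was below all Con+Veh libraries, so the direction in the weighted fit was not that of the mean CPM for these genes. *Chad* (chondroadherin, a matrix protein that binds collagen and cells) had a mean of 472.8 CPM in STZ-HFD and 6958 CPM in Con+Veh, with a log2 fold change of -4.26 (SE 0.36; limma, BH-adjusted p = 9.26e-06). *Cytl1*, a secreted protein of chondrocytes, fell by 2.92 on the log2 scale (SE 0.39; limma, BH-adjusted p = 0.00104), *Fmod*, which binds fibrillar collagen, by 1.58 (SE 0.26, adjusted p = 0.00567), and *Hapln1*, the link protein that ties aggrecan to hyaluronan, by 1.68 (SE 0.33, adjusted p = 0.0130).

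The principal matrix genes *Col2a1* (type II collagen) and *Acan* (aggrecan) were called as well. *Col2a1* was at 110, 143, 109.7 and 188 CPM in STZ-HFD and at 269.5, 157.5, 396 and 1038 CPM in Con+Veh. The groups overlapped, because Con+Veh replicate 2 was below the highest STZ-HFD library, and the log2 fold change was -1.84 (SE 0.37; limma, BH-adjusted p = 0.0162). *Acan* was at 466, 396, 318 and 905 CPM in STZ-HFD and at 1261, 980.0, 1585 and 1580.0 CPM in Con+Veh. Here each STZ-HFD library was below each Con+Veh library, with a log2 fold change of -1.59 (SE 0.32; limma, BH-adjusted p = 0.0154). The number called among these 19 genes was 2 without Con+Veh replicate 3, 1 without Con+Veh replicate 4 and 2 without STZ-HFD replicate 3. This list was drawn up with earlier results of these data known, so its direction is not independent evidence. In db/db, 0 of the 19 were called by limma, edgeR's quasi-likelihood test or DESeq2, 3 had an unadjusted p under 0.05 (21.1% of all genes did), and the median was -0.33. The genes with the smallest p there, *Wwp2* (a ubiquitin ligase gene that hosts a cartilage microRNA) and *Col11a2* (type XI collagen), had log2 fold changes of -0.91 and -1.17 (limma, BH-adjusted p = 0.0549 and 0.0936), *Col2a1* had -0.98 (adjusted p = 0.391) and *Acan* -1.03 (adjusted p = 0.224).

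Of the feedback loop of *Ihh*, *Pthlh* and *Pth1r*, the ligand *Ihh* and the receptor *Pth1r* lay lower in db/db without overlap, while the ligand *Pthlh* did not separate in either model. The start regions of *Ihh* and *Pth1r*, with that of *Sox6*, are shown because the db/db and db/+ libraries of these genes were separate and because the log2 fold change in db/db varied with the GC content of the gene over 16899 genes (Spearman's rho = -0.43, across genes, which are not independent replicates, and -0.08 in STZ-HFD). Gene GC content was 62.3% for *Ihh*, 60.4% for *Pth1r*, 59.8% for *Snorc* and 46.1% for *Sox6*. Sequences are from RefSeq (GRCm38.p6), 5′ to 3′ on the strand of the gene, the 250 bases before an annotated start, with capitals for matches to a GC box (GGGCGG, on either strand, here CCGCCC on the other), which 32.7% of 32851 such windows hold. The window of *Ihh* is chr1:74951673-74951922 (minus strand, GC 72.0%, 2 matches), that of *Pth1r* is chr9:110743687-110743936 (minus strand, GC 65.6%, 1 match), at the start that carried 94.6% to 100.0% of the estimated transcript counts of *Pth1r* in each library, and that of *Sox6* is chr7:116031048-116031297 (minus strand, GC 60.8%, 4 matches), a start that carried 21% to 64.7% of its estimated counts.
Ihh: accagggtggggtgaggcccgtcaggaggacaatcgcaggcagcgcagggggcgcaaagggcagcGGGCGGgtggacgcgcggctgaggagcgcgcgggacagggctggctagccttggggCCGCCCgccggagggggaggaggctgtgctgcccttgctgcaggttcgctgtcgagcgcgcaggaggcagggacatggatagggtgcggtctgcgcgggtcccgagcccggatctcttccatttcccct
Pth1r: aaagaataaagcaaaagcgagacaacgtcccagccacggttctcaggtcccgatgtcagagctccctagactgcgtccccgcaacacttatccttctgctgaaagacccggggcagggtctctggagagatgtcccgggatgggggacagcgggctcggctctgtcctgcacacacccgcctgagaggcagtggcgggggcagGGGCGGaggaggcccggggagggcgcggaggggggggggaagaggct
Sox6: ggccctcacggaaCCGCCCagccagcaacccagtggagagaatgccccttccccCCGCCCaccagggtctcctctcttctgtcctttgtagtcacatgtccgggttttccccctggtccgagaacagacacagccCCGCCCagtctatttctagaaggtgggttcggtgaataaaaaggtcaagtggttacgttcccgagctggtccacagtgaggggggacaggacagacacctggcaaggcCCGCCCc

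The 3 windows were also searched on both strands for a Runx motif (TGTGGT, in 14% of all windows), a cAMP response element (TGACGTCA, 1.55%), a TATA box (TATAAA, 12.4%) and a Gli motif (GACCACCCA, 0.225%), and held none of these letters. Of the 10 genes, 8 had an entry in the promoter table, with 18 windows, so other starts of *Sox6* and *Pth1r* are not shown. The other *Sox6* windows had a GC content of 34% to 45.2% and no GC box match. Among them, chr7:115846141-115846390 and chr7:115824711-115824960 held a Runx match and chr7:115801610-115801859 a TATA match. With the GC trend of each library removed, the db/db log2 fold change was -0.50 for *Pth1r*, -0.36 for *Ihh* and -0.24 for *Snorc*, in place of -1.004, -0.85 and -0.75, and it was -0.68 for *Sox6* in place of -0.58. So the values of the 3 GC-rich genes were smaller in that fit, and that of *Sox6* was not, with adjusted p of 0.281, 0.474, 0.767 and 0.0864 (limma, BH-adjusted).

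*Ihh* (ENSMUSG00000006538), on chromosome 1 from 74945315 to 74951672 on the minus strand, was at 7.08, 5.54 and 7.10 CPM in db/db and at 10.4, 9.79 and 16.8 CPM in db/+. The db/db libraries were all below the db/+ libraries, with a log2 fold change of -0.85 (SE 0.25, 95% CI -1.38 to -0.33; limma, BH-adjusted p = 0.0752). It was at 1.32, 3.82, 2.21 and 1.61 CPM in STZ-HFD and at 4.21, 2.02, 3.43 and 2.88 CPM in Con+Veh, on 32 to 155 counts per library. These groups overlapped, and the log2 fold change of -0.59 (SE 0.39, 95% CI -1.40 to 0.22) leaves a wide interval (limma, BH-adjusted p = 0.456).

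*Pthlh* (ENSMUSG00000048776), on chromosome 6 from 147252101 to 147264183 on the minus strand, was at 4.61, 5.60 and 5.48 CPM in db/db and at 11, 4.57 and 6.58 CPM in db/+. It was at 4.44, 9.63, 7.86 and 6.42 CPM in STZ-HFD and at 11.9, 5.05, 6.44 and 9.07 CPM in Con+Veh. The groups overlapped in both models. The log2 fold changes were -0.36 (SE 0.31, 95% CI -1.01 to 0.28) in db/db and 0.0015 (SE 0.31, 95% CI -0.64 to 0.65) in STZ-HFD (limma, BH-adjusted p = 0.520 and 0.998), and the sign of the second changed with the method.

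*Pth1r* (ENSMUSG00000032492), on chromosome 9 from 110722085 to 110747145 on the minus strand, had the lowest log2 fold change of the 10 genes in db/db. It was at 81.8, 72.2 and 116 CPM in db/db and at 229, 140.3 and 177 CPM in db/+. Each db/db library was below each db/+ library. The log2 fold change was -1.004 (SE 0.28, 95% CI -1.59 to -0.41), a 2.01-fold lower estimate, and it did not pass the test (limma, BH-adjusted p = 0.0651). Over the alternatives the adjusted p ran from 0.00179 to 0.286. *Pth1r* is also active in cells of the osteoblast lineage, and 6 of 10 osteoblast and osteocyte markers were lower in db/db without overlap (11.7% of all genes were), with 0 of 10 called (1.66% of all genes). The part of bone cells in this value was not tested. In STZ-HFD *Pth1r* was at 22.6, 53.5, 36.3 and 31.2 CPM and in Con+Veh at 52.7, 27.9, 49.4 and 51.3 CPM. These groups overlapped, with a log2 fold change of -0.45 (SE 0.23; limma, BH-adjusted p = 0.310).

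In the wider hedgehog and PTHrP pathway, 4 of 22 genes tested (*Pth2r* was not) were called lower and 0 higher in STZ-HFD, against 1.31% and 1.3% of all genes, and the median log2 fold change was -0.50. The 4 act at the receiving end of hedgehog signalling. *Cdon* and *Boc*, which encode co-receptors of hedgehog ligands, had log2 fold changes of -1.07 (SE 0.23; limma, BH-adjusted p = 0.0208) and -1.12 (SE 0.26, adjusted p = 0.0285). *Smo*, which encodes the signal transducer, had -1.10 (SE 0.26; limma, BH-adjusted p = 0.0282), and *Gli2*, a transcription factor of the pathway, had -1.15 (SE 0.29, adjusted p = 0.0358). *Ptch1*, the receptor and a target of the pathway, had -0.57 (adjusted p = 0.176) and *Gli1*, another target, had -0.74 (adjusted p = 0.132), neither passing the test. The count was 0 under edgeR's quasi-likelihood test, and it was 0 without Con+Veh replicate 3, Con+Veh replicate 4 or STZ-HFD replicate 3, 1 without STZ-HFD replicate 4 and 2 without STZ-HFD replicate 2. In db/db 0 of 22 were called by limma, edgeR or DESeq2, 3 had an unadjusted p under 0.05 (21.1% of all genes did), and the median was -0.22. The smallest p values there were those of *Nkx3-2*, a transcription factor that acts against hypertrophy, at -1.65 (limma, BH-adjusted p = 0.0776), and *Cdon*, at -0.76 (adjusted p = 0.155), while *Ptch1* was at -0.0023 (adjusted p = 0.997) and *Gli1* at -0.63 (adjusted p = 0.166).

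Of the drivers of hypertrophy, *Runx2* (ENSMUSG00000039153), on chromosome 17 from 44495987 to 44814797 on the minus strand, was at 17.7, 26.4, 26.1 and 27.1 CPM in STZ-HFD and at 52.3, 39.9, 43.1 and 45.4 CPM in Con+Veh. Each STZ-HFD library was below each Con+Veh library. With *Sox9*, this made 2 of 10 genes lower in STZ-HFD without overlap, against 2.77% of all genes tested, and 0 of 10 higher, against 1.97%. *Runx2* had a log2 fold change of -0.78 (SE 0.24, 95% CI -1.29 to -0.26), under the fold minimum and not past the adjusted threshold (limma, BH-adjusted p = 0.0897). In the db mice *Runx2* was at 79.5, 169.5 and 138.5 CPM in db/db and at 103.5, 71.9 and 169 CPM in db/+. These ranges overlapped almost entirely, with a log2 fold change of 0.25 (SE 0.30, 95% CI -0.37 to 0.88; limma, BH-adjusted p = 0.661).

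*Runx2* is read from a distal and a proximal start. Transcripts of the proximal start, from position 44736648, took 62.4% to 89.8% of the estimated transcript counts of the gene in each library, and those of the distal start, from position 44814797, took 10.2% to 37.5%. The shares of the 4 groups overlapped. Estimated counts summed to 17.9% to 33.5% of the gene count of *Runx2*, with a lowest total of 77 in a library, so these shares too rest on part of its reads.

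*Runx3* (ENSMUSG00000070691), on chromosome 4 from 135120652 to 135177990 on the plus strand, was the least even of the 3 drivers among mice. It was at 23.1, 104 and 78.2 CPM in db/db and at 85.2, 42.5 and 135 CPM in db/+. It was at 6.33, 5.50, 5.19 and 12.3 CPM in STZ-HFD and at 12.1, 11, 16.3 and 20.7 CPM in Con+Veh. The groups overlapped in both models, in the second through STZ-HFD replicate 4. The log2 fold changes were -0.36 (SE 0.47, 95% CI -1.36 to 0.63) in db/db and -1.15 (SE 0.48, 95% CI -2.17 to -0.13) in STZ-HFD (limma, BH-adjusted p = 0.697 and 0.214). Estimated transcript counts of *Runx3* summed to 0% to 12.5% of its gene count. They were 0 in STZ-HFD replicates 1, 2 and 3, and 11.45 in db/db replicate 3 beside a gene count of 4980. The reason for this gap was not tested.

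*Mef2c* (ENSMUSG00000005583), on chromosome 13 from 83504034 to 83667080 on the plus strand, promotes hypertrophy in cartilage and is also a transcription factor of skeletal muscle and endothelium. It was at 332.8, 553, 645 and 577 CPM in STZ-HFD and at 569, 431, 309 and 458.5 CPM in Con+Veh. STZ-HFD replicate 1 lay within the Con+Veh range, so the groups overlapped. The log2 fold change was 0.61 (SE 0.24, 95% CI 0.10 to 1.12; limma, BH-adjusted p = 0.182). The skeletal muscle markers summed to 7176 CPM in STZ-HFD replicate 1 and to 18800, 19930 and 21880 CPM in the others. The endothelial markers summed to 223.6 CPM in it and to 497.9, 436.8 and 497 CPM in the others. So the library with the lowest sums of both lists in this group was also that with the least *Mef2c*. It was also the library with a normalization factor of 1.582 and a weight of 0.3791. The part of muscle, endothelium or library quality in this value was not tested. In the db mice *Mef2c* was at 312, 211 and 194 CPM in db/db and at 333.7, 240.5 and 206 CPM in db/+, overlapping, with a log2 fold change of -0.14 (SE 0.28, 95% CI -0.74 to 0.46; limma, BH-adjusted p = 0.812).

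The start from which *Mef2c* was read set the cohorts apart, while each model overlapped its control. Transcripts of the first start, from position 83504034, took 44.7%, 32.2% and 22% of the estimated transcript counts of *Mef2c* in db/db and 42.2%, 55.7% and 32.7% in db/+. They took 70.4%, 67.6%, 71.8% and 72.4% in STZ-HFD and 68.6%, 58.6%, 69.3% and 73.9% in Con+Veh. Shares in the db mice, 22% to 55.7%, were all below those of the STZ cohort, 58.6% to 73.9%, and within each model the groups overlapped. Transcripts of the second start, from position 83523473, took 34.4% to 57.4% in the db mice and 15.3% to 28.7% in the STZ cohort. Estimated counts summed to 9.82% to 19.4% of the gene count of *Mef2c*, so the shares rest on part of its reads. No test was made, because age, diet, cohort, the share of counts on ribosomal RNA genes and any difference of strain cannot be told apart here. The 250 bases before the first start, chr13:83503784-83504033 (plus strand, GC 33.6%, RefSeq GRCm38.p6), are shown because they lie at the start whose share set the cohorts apart, and the capitals mark a TATA box match on the other strand (TTTATA).
Mef2c: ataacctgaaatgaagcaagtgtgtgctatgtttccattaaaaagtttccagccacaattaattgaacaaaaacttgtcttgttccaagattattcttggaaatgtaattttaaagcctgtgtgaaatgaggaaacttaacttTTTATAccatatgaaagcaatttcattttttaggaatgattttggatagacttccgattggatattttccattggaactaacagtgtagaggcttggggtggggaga

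**Figure D3:**
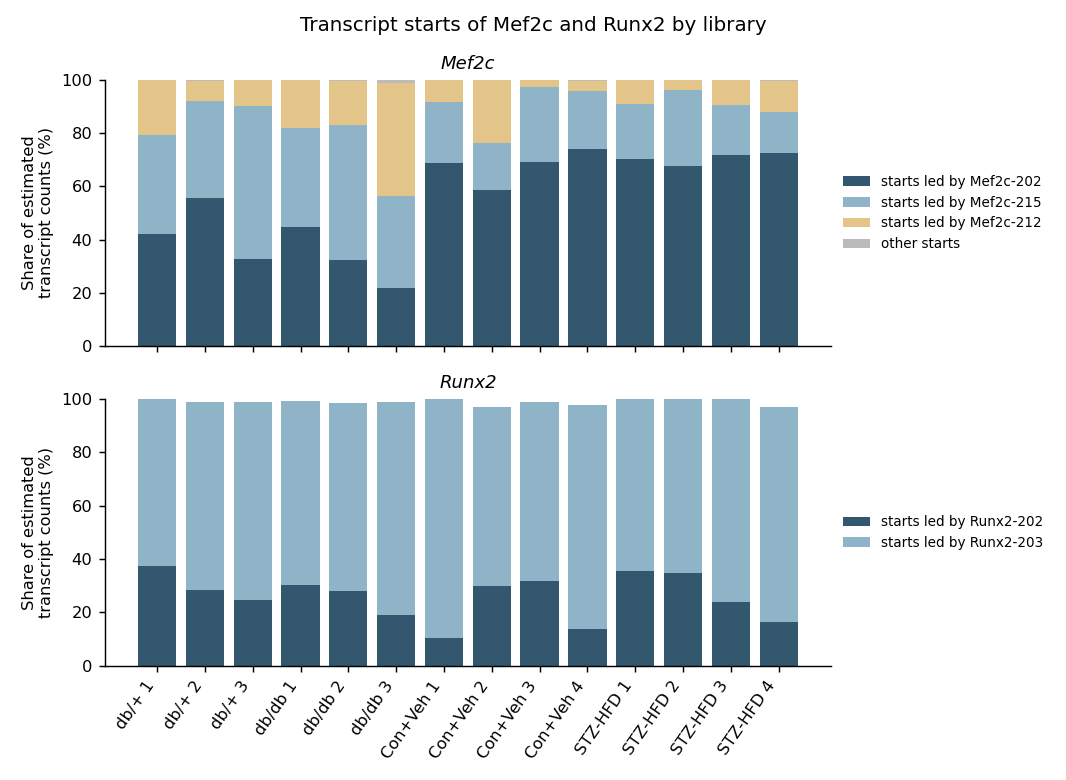
Share of the estimated transcript counts of *Mef2c* and *Runx2* by annotated start, as stacked bars in percent, 1 bar per library in the 4 groups, with the dark part of each bar for the first (*Mef2c*) or distal (*Runx2*) start and the legend naming the leading transcript of each start. The *Mef2c* share of the first start is 22% to 55.7% in the db mice and 58.6% to 73.9% in the STZ cohort, and the *Runx2* bars end short of the full height where 1 of its 14 transcripts could not be placed.

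Genes of hypertrophic cartilage and of mineralization had 3 of 16 tested members (*Phospho1* was not) called lower and 0 higher in STZ-HFD, against 1.31% and 1.3% of all genes, with a median log2 fold change of -0.82. *Spp1* (osteopontin), a matrix protein of bone and calcified cartilage, had a mean of 217 CPM in STZ-HFD and 797 CPM in Con+Veh, with a log2 fold change of -2.25 (SE 0.29; limma, BH-adjusted p = 0.000892). *Ibsp* (bone sialoprotein) had -1.58 (SE 0.32; limma, BH-adjusted p = 0.0154) and *Alpl*, the alkaline phosphatase of mineralizing cells, had -1.27 (SE 0.27, adjusted p = 0.0199). The genes most used to mark hypertrophy did not pass the test, *Col10a1* (type X collagen) being at 0.0093 (SE 0.52; limma, BH-adjusted p = 0.996) and *Mmp13*, a collagenase, at -0.51 (SE 0.38, adjusted p = 0.531). All 3 called genes are also expressed in bone, and *Ibsp* was the 1 of 10 osteoblast and osteocyte markers called in STZ-HFD. Of 8 macrophage markers, 3 were called lower in this model, against 1.31% of all genes. The part of bone, macrophages or other cells in these values was not tested. The number called in this list was 0 without Con+Veh replicate 3 and 1 without Con+Veh replicate 4, STZ-HFD replicate 3 or STZ-HFD replicate 4. In db/db 0 of 16 were called by limma, edgeR or DESeq2, 3 had an unadjusted p under 0.05 (21.1% of all genes did) and the median was -0.16. Without db/db replicate 1, 1 gene was called higher, and without db/+ replicate 2, 1 gene was called lower. *Cdkn1c*, an inhibitor of the cell cycle, was at 1.18 (limma, BH-adjusted p = 0.0587), the growth factor *Vegfa* at -0.79 (adjusted p = 0.115), *Col10a1* at 0.41 (adjusted p = 0.612) and *Mmp13* at 0.72 (adjusted p = 0.251).

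**Figure D4:**
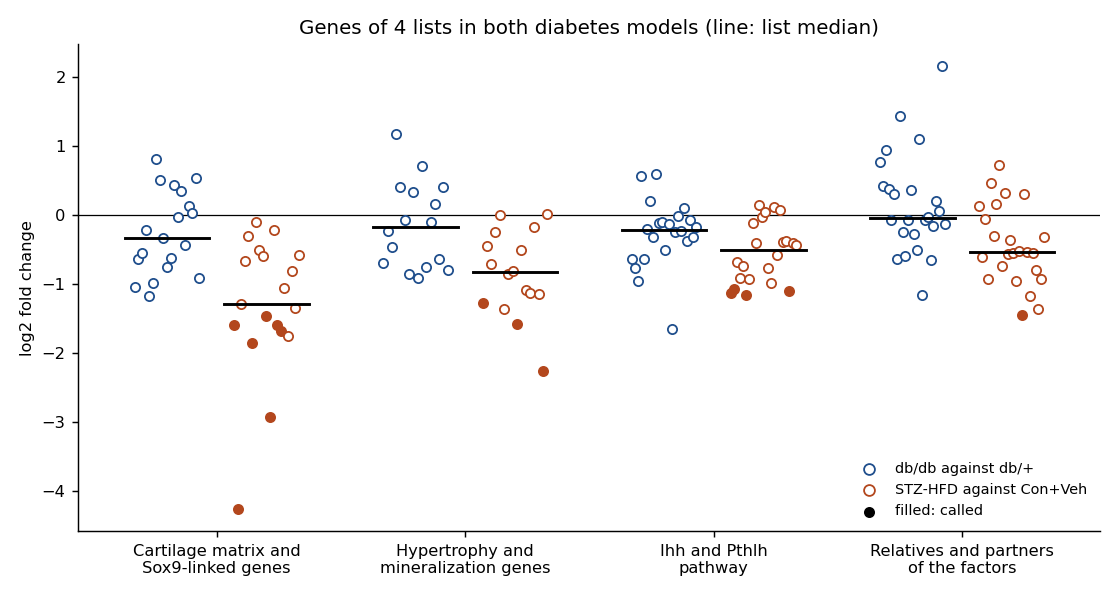
Log2 fold change of each gene tested in the 4 gene lists, 1 point per gene, for db/db against db/+ and STZ-HFD against Con+Veh, filled where called, with a line at the median of each list. The STZ-HFD medians are -1.29, -0.82, -0.50 and -0.53 for the matrix, hypertrophy, hedgehog and relatives lists, and the db/db medians are -0.33, -0.16, -0.22 and -0.04.

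Relatives and partners of these transcription factors formed a further list, in which 1 of 24 genes tested (*Mef2b* was not) was called lower and 0 higher in STZ-HFD, against 1.31% and 1.3% of all genes, with a median of -0.53. The gene called was *Sox12*, a member of the SoxC group, at -1.44 (SE 0.37; limma, BH-adjusted p = 0.0403), with means of 4.68 CPM in STZ-HFD and 10.2 CPM in Con+Veh. *Sox12* lost the call in 11 of 13 alternatives and in 5 of 14 fits with 1 library left out, namely Con+Veh replicates 3 and 4 and STZ-HFD replicates 2, 3 and 4. *Trps1*, a GATA-type repressor of chondrocyte maturation, had a smaller difference of -0.79 (SE 0.16; limma, BH-adjusted p = 0.0173), under the fold minimum. In db/db 0 of 24 were called by limma, edgeR or DESeq2, 7 had an unadjusted p under 0.05 (21.1% of all genes did) and the median was -0.04. *Twist2*, an antagonist of *Runx2*, was at 2.16 (limma, BH-adjusted p = 0.0502), on means of 1.69 CPM in db/db and 0.354 CPM in db/+, and *Cbfb*, the partner subunit of the Runx proteins, was at 0.77 (adjusted p = 0.0936).

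Whether the models differed from each other was tested as the db/db log2 fold change minus the STZ-HFD log2 fold change in the same fit. Of the 10 genes, 0 were called, where 1.77% of all genes tested were called, and edgeR's quasi-likelihood test and DESeq2 also called 0. At an unadjusted p under 0.05 there were 3 of 10, *Sox9*, *Sox6* and *Runx2*, against 17.3% of all genes. *Runx2* had a difference of 1.03 (SE 0.38, 95% CI 0.22 to 1.84; limma, BH-adjusted p = 0.172), *Sox9* of 0.96 (SE 0.39, adjusted p = 0.212) and *Sox6* of -0.75 (SE 0.25, adjusted p = 0.128). So the fall of *Sox9* in STZ-HFD was not shown to differ from its value in db/db. For the other 7 genes the differences lay between -0.75 and 0.79, with adjusted p of 0.313 to 0.826. In the lists, *Chad* (3.63, limma, BH-adjusted p = 0.0201) and *Spp1* (2.67, adjusted p = 0.0201) were called, both lower in STZ-HFD relative to its control than in db/db. Neither was called without db/db replicate 3, db/+ replicate 2, Con+Veh replicate 3, Con+Veh replicate 4 or STZ-HFD replicate 3.

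**Figure D5:**
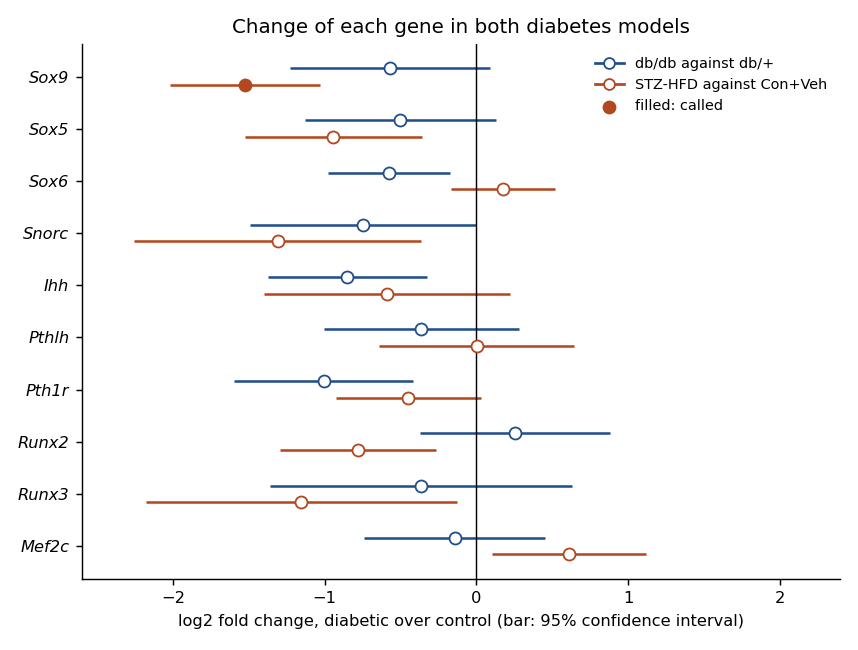
Log2 fold change with its 95% CI for the 10 genes in db/db against db/+ and STZ-HFD against Con+Veh, with filled points for genes called and open points for the others. The filled point is *Sox9* in STZ-HFD at -1.53, and the intervals of *Sox9*, *Sox5*, *Pthlh*, *Runx2*, *Runx3* and *Mef2c* in db/db include 0.

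For 6 of the 10 genes, *Sox9*, *Snorc*, *Ihh*, *Pth1r*, *Runx2* and *Runx3*, the libraries of both db groups lay above those of both groups of the STZ cohort, against 2.48% of all genes tested, and for 0 of 10 they lay below, against 1.53%. By mean CPM, *Sox9* was highest in db/+ (359 ± 118, SD, n = 3), then db/db (231 ± 60.5, SD, n = 3), Con+Veh (107 ± 31.5, SD, n = 4) and STZ-HFD (37.3 ± 8.63, SD, n = 4), and the neighbours in this order were separate except db/+ and db/db. This descending order was also that of *Snorc*, *Ihh* and *Pth1r*, whose ranges were separate down to Con+Veh and overlapped between Con+Veh and STZ-HFD. *Runx2* was highest in db/db, then in db/+, then in Con+Veh and then in STZ-HFD, with an overlap between the db groups and none further down, and for *Runx3* db/+ and db/db overlapped, db/db was separate from Con+Veh, and Con+Veh and STZ-HFD overlapped. *Mef2c* was highest in STZ-HFD (527 ± 135, SD, n = 4), then Con+Veh (442 ± 107, SD, n = 4), db/+ (260.2 ± 65.9, SD, n = 3) and db/db (239 ± 63.9, SD, n = 3), and each pair of neighbours overlapped. Neighbours also overlapped for *Sox5* and *Pthlh*, and for *Sox6* the highest group, db/+, was separate from the next, STZ-HFD. The cohorts differ in age and treatment and may differ in strain, which is not given for the db mice. Their libraries differ too, with 28.06% to 39.65% of counts on ribosomal RNA genes in the db mice and 44.36% to 60.25% in the STZ cohort. Age, treatment, strain and the make-up of the libraries cannot be told apart. The summed osteoblast and osteocyte markers, mostly *Col1a1*, were lower in each library of the STZ cohort than in the db mice. Per length, as CPM per kilobase of exon, *Sox9* led the 10 genes in db/+ (86.9), before *Snorc* (63.6) and *Pth1r* (62.3), with *Sox5* lowest at 3.57. In STZ-HFD *Mef2c* led with 33.5, before *Pth1r* (12.3) and *Sox9* (9.01), with *Ihh* lowest at 0.734.

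The genes whose pattern over the 14 libraries was most like that of a member were named by the mean absolute difference of log2 CPM after centring each gene, over 13621 protein-coding genes. For *Sox9* they were *Eps8l2* (0.203), *Dlx5* (0.242) and *Sdk2* (0.247), where the median over all genes was 1.21. Among the 10 genes, *Runx2* ranked 32, *Ihh* 38, *Runx3* 56 and *Pth1r* 92 in likeness to *Sox9*, *Snorc* ranked 159 and *Sox5* 272, while *Sox6* ranked 4537, *Pthlh* 6750 and *Mef2c* 11683. For *Snorc* the nearest were *Cnmd* (0.294), *Sparc* (0.428) and *Crispld1* (0.439), for *Runx2* they were *Ptch1* (0.223), *Slc35b2* (0.231) and *Dlx5* (0.239), and for *Pth1r* they were *Col6a3* (0.164), *Acsf2* (0.216) and *Ihh* (0.23). These values describe all 14 libraries together and so include the distance between the cohorts.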

How the data were processed

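Discs of 14 mice were measured, and groups and replicate numbers came from the sample labels, each library being a separate mouse. The authors aligned reads to Ensembl release 101 (GRCm38) with STAR, and deposited gene counts from featureCounts in whole numbers without normalization, the strand setting not being given in the sources used here. RNA had been amplified by PCR before sequencing, so count floors cover counting error only. The authors also deposited estimated counts per transcript from Salmon, which were used here for shares by start and, summed per gene and rounded, for 1 alternative. The gene table held 55774 lines, of which 287 repeat an identifier and were used once, and 55227 of the 55487 genes were found in GENCODE M21, which gave positions, lengths and GC content.

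Counts were normalized by TMM (edgeR 4.0.16, R 4.3.3), genes were kept where 3 or more libraries had a CPM above 1, and limma 3.58.1 (voomWithQualityWeights, named in the study's methods) was fitted to all 16915 genes with a mean per group. CPM are relative to the counts on kept genes times the TMM factor. Each model was contrasted with its control, and the contrasts with each other, with Benjamini-Hochberg adjustment over all genes and calls at an adjusted p under 0.05 where the log2 fold change was 1 or more in size. No set test was run. Marker levels used a prior count of 2. Refits used DESeq2 1.42.0, edgeR's quasi-likelihood test, voom without quality weights, RLE factors, filterByExpr or no filter, each model alone, a replicate block, no fold minimum, transcript totals, removal of the GC trend over 20 bins, removal of ribosomal RNA genes, leaving out both RIP libraries and leaving out each library in turn. The fit was tested on simulated data with the same baseline in every group and larger changes than most reported here. The simulation held no difference between the cohorts and no uneven library quality, so it does not show how secure the calls here are.

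All 10 genes are named. Of each list, up to 4 called genes with the smallest p per contrast were named, or the 2 with the smallest p where fewer than 2 were called, and *Col10a1*, *Mmp13*, *Col2a1*, *Acan*, *Ptch1* and *Gli1* always, with the 3 genes nearest to *Sox9*, *Snorc*, *Runx2* and *Pth1r*, and *Lepr*. Some marker genes were named after their values were seen. The genes and lists were chosen with earlier results of these data known. Transcript starts within 2000 bases were joined. The estimated transcript counts behind the shares summed to 17.3% to 35.1% of the gene count for *Pth1r* and to 20% to 31.7% for *Sox6*. The share of high-fat diet calories from fat differs between the labels and the methods and is not printed.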

Additional observations from a re-analysis of the deposited data

Results flagged for a closer look

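In groups of 4, the gap of the lowest or highest library to the nearest of the others, divided by the range of the group, was set against Dixon's 95% critical value. Of 20 such groups for the 10 genes, 2 were past it, and chance flags about 1 in 20. *Pth1r* was at 27.9 CPM in Con+Veh replicate 2, below the other Con+Veh libraries at 49.4 to 52.7 CPM. *Runx2* was at 17.7 CPM in STZ-HFD replicate 1, below the other STZ-HFD libraries at 26.1 to 27.1 CPM.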

How the results depend on the processing

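Of the 10 genes, 1 was called in STZ-HFD, 0 in db/db and 0 in the difference of the contrasts. The STZ-HFD count was 0 with edgeR's quasi-likelihood test, without a filter on low counts and with gene totals from transcript counts, and 0 to 3 with 1 library left out. The count of the difference was 0 in each alternative run. Correlations between the deviations of same-numbered mice were r = -0.28 to 0.192 over the 7 pairs. Between mice of different numbers in a model and its control, r was -0.275 to 0.453. With so few mice per group, these values cannot decide whether the numbers pair the mice, and the labels do not state it. With the replicate block the count of the 10 genes was 0 in STZ-HFD (*Sox9* adjusted p = 0.245) and 2 in db/db (*Pth1r* -1.18, adjusted p = 0.00179, and *Runx3* -1.04, adjusted p = 0.0209, in limma with Benjamini-Hochberg adjustment), and over all genes 1484 in db/db in place of 281 and 6 in STZ-HFD in place of 441. With the block the matrix, hypertrophy, hedgehog and relatives lists had 3, 1, 1 and 3 calls for db/db, 2, 0, 0 and 0 for STZ-HFD, and 0 in the difference for the matrix and hypertrophy lists.

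Over all genes the db/db calls were 0 with edgeR (1891 at an unadjusted p under 0.05), 211 with DESeq2, 9 without quality weights, 534 without a filter, 144 with transcript totals, 143 with the GC trend removed and 21 to 395 with 1 library left out, and the STZ-HFD calls were 29, 272, 19, 130, 56, 363 and 14 to 643. Other STZ-HFD calls were 217 with filterByExpr, 235 with each model alone and 236 without both RIP libraries. In the matrix list, with 7 called in STZ-HFD, there were 2 with edgeR, 2 without quality weights, 0 without a filter, 3 with transcript totals and 1 to 9 with 1 library left out, and in db/db 1 with transcript totals. In the difference this list had 1 called, 0 with edgeR, without quality weights and without a filter, 3 without both RIP libraries and 0 to 3 with 1 library left out. In the hypertrophy list, with 3 called in STZ-HFD, there were 0 with edgeR, 1 without quality weights, without a filter and with transcript totals, and 0 to 4 with 1 library left out. In db/db there was 1, higher, with the GC trend removed (1, lower, with the block) and 0 to 1 with 1 library left out, and in the difference there were 0 with edgeR, without quality weights and with the GC trend removed, and 0 to 2 with 1 library left out. In the hedgehog list, with 4 called in STZ-HFD, there were 0 with edgeR, without quality weights, without a filter and with transcript totals, 1 with filterByExpr and with each model alone, 2 without both RIP libraries, and 0 to 4 with 1 library left out. In the relatives list, with 1 called in STZ-HFD, there were 0 with edgeR, DESeq2, no quality weights, filterByExpr, no filter, each model alone, transcript totals, the GC trend removed, ribosomal RNA genes removed and no RIP libraries, 2 with no minimum on the fold, and 0 to 1 with 1 library left out. In db/db this list had 1 with RLE factors, filterByExpr, no filter and ribosomal RNA genes removed, and 0 to 1 with 1 library left out, and in the difference 1 with DESeq2 and with no filter, and 0 to 1 with 1 library left out.

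The following log2 fold changes, none of them called, turned sign. In db/db, *Runx2* was at -0.050 and *Col10a1* at -0.11 with the replicate block, *Mef2c* was at 0.053 with transcript totals, and *Ptch1* was at 0.020 with DESeq2, 0.010 with RLE factors, 0.014 with filterByExpr, 0.038 without a filter, 0.017 with each model alone and 0.027 with ribosomal RNA genes removed. In STZ-HFD *Pthlh* was at -0.19 with edgeR, -0.18 with DESeq2, -0.13 without quality weights, -0.10 with the replicate block and -0.023 without both RIP libraries. In the difference, *Snorc* was at -0.22 without quality weights and *Ihh* at 0.081 with the GC trend removed. With 1 library left out the ranges in db/db were -0.10 to 0.57 for *Runx2*, -0.89 to 0.28 for *Runx3*, -0.35 to 0.085 for *Mef2c*, -0.10 to 0.92 for *Col10a1* and -0.25 to 0.34 for *Ptch1*, those in STZ-HFD were -0.16 to 0.15 for *Pthlh*, -0.20 to 0.53 for *Col10a1* and -0.67 to 0.22 for *Mmp13*, and that of *Snorc* in the difference was -0.10 to 0.90. The cause was not tested. No filter adds genes to the adjustment and leaving out a library removes a mouse. A test for genes under the expression minimum gave no value, since all 10 genes passed it. At 32 to 155 counts in the STZ cohort, *Ihh* has the fewest counts of the 10 genes, which limits its precision.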
